A study of Brassica napus with 12 samples.

Results

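Close pairs of lasting H3K4me3 regions are places in the *Brassica napus* genome where 2 separate regions of this histone mark lay within 500 bp of each other and were both found in silique, flower bud and seedling. The members were chosen by measured values. Peaks of the 6 H3K4me3 libraries were merged where they overlapped by at least 1 bp, and a merged region counted as lasting when all 6 libraries had a peak in it. A pair consists of neighbouring lasting regions on the same sequence, each narrower than 2000 bp, with a gap under 500 bp between them. The rule found 283 pairs, made of 566 regions. They are 1.08% of the 26195 neighbouring pairs of lasting regions under this width at any gap. They hold 1.49% of the 37889 lasting regions, out of 51928 merged regions in all. No region belonged to 2 pairs, so no chain of close regions occurred.

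The study profiled H3K4me3 and H3K27me3 by ChIP-seq, the sequencing of DNA fragments bound to an immunoprecipitated histone mark, in the rapeseed hybrid HZ62, whose genotype the labels give as wild type. The silique libraries came from young pods 3 to 5 cm long, the flower bud libraries from buds under 2 mm, and the seedling libraries from plants 2 weeks old, which the titles call leaf. Each tissue had 2 libraries per mark, 12 in all, and every plant received 16 h of light at 22 °C and 8 h of dark at 18 °C. About 1 g of tissue per library was fixed in 1% formaldehyde and sheared to between 200 and 600 bp. The labels do not say that the 2 libraries of a tissue came from separate plants, so every p-value here measures how much these libraries vary, and that variation may be technical.

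H3K4me3 is placed on nucleosomes just downstream of the start of transcribed genes, and in plants it forms a compact block over the first part of the gene body. H3K27me3 is deposited by Polycomb group proteins over genes kept silent, and it marks many developmental genes in particular organs. Genes that lie head to head, with their starts close together, are one known arrangement in which neighbouring blocks of H3K4me3 occur. The name of the files' genome build is not given in the sources used here and no annotation of it was used, so pairs are given by the number that ends the sequence name and by their positions in the files. The left partner is the one with the lower coordinates, and nothing is said here of the genes beneath it.

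The height of a region was the pileup at its highest summit, that is, the number of fragments that cover that base, as deposited. The 6 H3K4me3 libraries held between 8609548 and 14339594 fragments and between 43010 and 48825 peaks. Levels are given as scaled pileup, which is the pileup per 1000000 fragments of the library. The fragment size in the file headers was 332 and 248 bp for silique, 304 and 310 bp for flower bud and 236 and 246 bp for seedling. The seedling libraries, 53 and 54 by the number in their titles, come from an earlier series of numbers than all silique and flower bud libraries. A difference that sets seedling apart cannot be told apart from a difference in handling that may go with these numbers. The numbers of silique and flower bud interleave, but they do not show that these libraries were handled together. In whole tissues, a mark carried by fewer cells and less of the mark per cell cannot be told apart.

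The rule limited the gap and the widths, so the pairs were compact by choice. The median gap was 407 bp, and 157 of the 283 gaps were at least 400 bp, 112 were at least 300 bp but under 400 bp, and 14 were under 300 bp. Another 158 neighbouring pairs had a gap of at least 500 bp but under 600 bp. The nearest pair outside the rule lay on sequence 11, at 42482203–42483541 and 42484042–42485051, with a gap of 500 bp. Just inside it, with gaps of 498 bp, were pairs on sequence 5 (681075–681967 and 682466–683264) and sequence 6 (7154629–7155508 and 7156007–7157157, and 9287193–9288267 and 9288766–9289832). Among all neighbouring pairs past the limit the median gap was 6342 bp. Member regions had a median width of 920.5 bp, with a range of 415 to 1970 bp, and the other lasting regions under the width limit had a median width of 932 bp. From the outer edge of one partner to that of the other, a pair spanned a median of 2316 bp, from 1377 to 3571 bp.

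In most libraries the 2 facing peaks stood farther apart than the merged regions did, since a merged region takes the outermost edges of 6 libraries. In silique replicate 1, the library with the longest fragments, the distance equalled the merged gap in 102 of the 283 pairs, against at most 6 pairs in any of the other libraries. The median distance between the facing edges was 451 and 630 bp in the silique libraries, 597 and 537 bp in those of flower bud, and 650 and 609 bp in those of seedling. The shortest distances were 333 and 340 bp for silique, 318 and 320 bp for flower bud, and 285 and 294 bp for seedling. No facing distance was under the fragment size of its own library. Over all peaks of a library, the smallest gap between any 2 peaks was 333 and 249 bp for silique, 305 and 311 bp for flower bud, and 237 and 247 bp for seedling, which is 1 bp more than the fragment size each time. The peak lists therefore hold no gap shorter than a fragment, and partners that came closer than this in any library were joined there and are not members. The distance between the 2 summits varied less between libraries, with medians of 1346 and 1321 bp for silique, 1324 and 1326 bp for flower bud, and 1303 and 1306 bp for seedling.

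**Figure D1:**
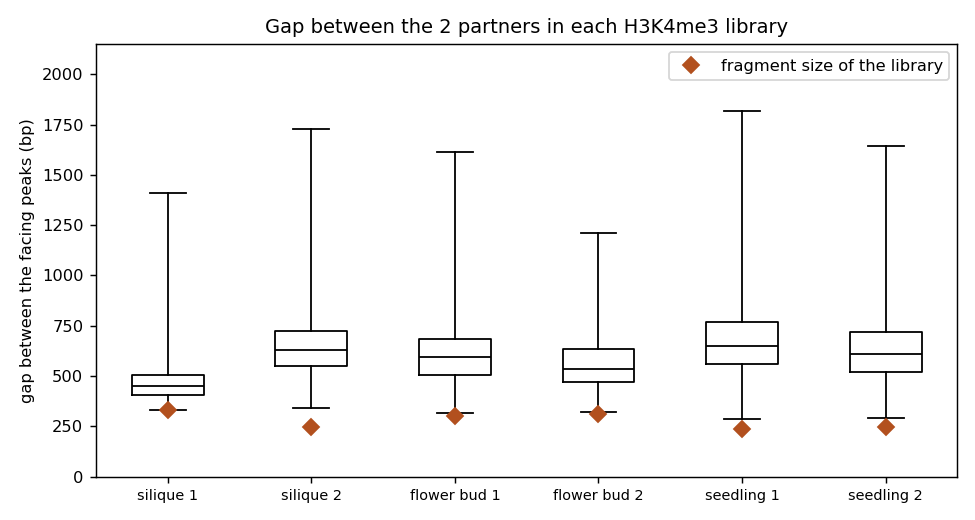
Distance in bp between the facing edges of the 2 partners' peaks (vertical axis) in each of the 6 H3K4me3 libraries, for the 283 pairs; boxes show the quartiles and the median, whiskers run to the lowest and highest pair, and diamonds give the fragment size of the library. The medians lie between 451 and 650 bp, and no whisker reaches below its diamond.

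The narrowest merged gap, 40 bp, was on sequence 3, between 9141874–9143461 and 9143502–9144497. Within single libraries its facing edges were apart by 852 and 1114 bp for silique, 709 and 815 bp for flower bud, and 770 and 294 bp for seedling. No library had the peaks as close as the merged regions, and seedling replicate 2 had by far the shortest distance. The next narrowest gap, 183 bp, was on sequence 8 (15394798–15395868 and 15396052–15397491), and the third was on sequence 9 (34789730–34790968 and 34791168–34792591).

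The members stood at ordinary H3K4me3 heights. The median scaled pileup of member regions was 9.21 and 9.01 in silique, 11.0 and 10.5 in flower bud, and 8.94 and 9.35 in seedling. For the 36062 other lasting regions under the width limit it was 9.41 and 9.10 in silique, 10.6 and 10.1 in flower bud, and 8.94 and 9.07 in seedling. The difference of the medians, members minus others, averaged 0.02 ± 0.04 on the log2 scale (SD, 6 libraries) and was above 0 in 3 of the 6. A two-sided exact permutation test of the sign of this difference over the 6 libraries gave p = 0.312, and 0.344 after Benjamini–Hochberg adjustment over 3 tests of this kind.

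The 2 partners were usually unequal. The stronger partner exceeded the weaker by a median of 1.89-fold and 1.95-fold in the silique libraries, 1.86-fold and 1.81-fold in the flower bud libraries, and 1.68-fold and 1.71-fold in the seedling libraries. Neighbours farther apart had medians of 1.79-fold and 1.79-fold in silique, 1.77-fold and 1.77-fold in flower bud, and 1.64-fold and 1.62-fold in seedling. A difference of at least 2-fold between partners was found for 47.3% and 48.1% of pairs in silique, 43.1% and 43.8% in flower bud, and 37.1% and 36.0% in seedling. For neighbours farther apart these shares were 42.1% and 42.7% in silique, 41.3% and 41.7% in flower bud, and 34.6% and 33.3% in seedling. Partners were thus least unequal in the seedling libraries, among members and among wider-spaced neighbours alike. The stronger partner was the wider region in 226 of the 282 pairs of unequal width, or 80.1%. This share was not computed for wider-spaced neighbours, so it is not read as particular to close pairs.

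Which partner was the stronger was mostly the same in every tissue. The same partner was higher in all 6 libraries in 201 pairs, or 71.0%, and this was the left one in 104 of them. Among neighbours with wider gaps the share was 64.6%. The same partner was at least 2-fold higher in all 6 libraries in 57 pairs (20.1%), against 16.7% of wider-spaced neighbours. In 43 pairs (15.2%, against 18.6% of wider-spaced neighbours) one partner was higher in both libraries of a tissue and the other in both libraries of another tissue. These shares over pairs of the same libraries are descriptions, without a test.

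The most unequal pair with a fixed order lay on sequence 16, at 9110228–9110949 and 9111439–9112846. Its left partner had a scaled pileup of 3.91 and 4.19 in silique, 4.64 and 5.39 in flower bud, and 4.88 and 4.49 in seedling. Its right partner had 35.1 and 33.1 in silique, 34.1 and 36.6 in flower bud, and 21.4 and 21.8 in seedling. The right partner was far above the left in every library, and least so in seedling. On sequence 1, at 1169366–1170876 and 1171290–1172053, the order was the other way round: the left partner had 26.1 and 22.8 in silique, 42.5 and 44.2 in flower bud, and 28.8 and 32.4 in seedling. The right partner of that pair had 2.79 and 3.48 in silique, 7.83 and 7.75 in flower bud, and 8.60 and 7.24 in seedling. Both partners were lowest in silique. The third such pair, on sequence 16 at 47204666–47206219 and 47206600–47207367, had its left partner between 19.4 and 24.2 in all 6 libraries and its right one between 2.77 and 7.16, highest in flower bud.

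The most nearly equal pair was the one on sequence 6 at 9287193–9288267 and 9288766–9289832. Its left partner had a scaled pileup of 22.7 and 21.4 in silique, 25.3 and 22.4 in flower bud, and 15.6 and 16.2 in seedling. Its right partner had 18.4 and 18.1 in silique, 27.4 and 27.2 in flower bud, and 15.6 and 17.6 in seedling. Left over right lay between 0.823 and 1.23 in every library, with the left partner higher in silique and the right one in flower bud. The next most equal pairs, on sequence 5 (26621061–26622002 and 26622448–26623642) and sequence 19 (26492326–26493094 and 26493429–26494254), had left over right between 0.858 and 1.26 and between 0.781 and 1.20. The pairs with the highest weaker partner were on sequence 1 at 8629818–8630967 and 8631454–8632883, on sequence 1 at 1925703–1927594 and 1927810–1928939, and on sequence 7 at 18633664–18634904 and 18635267–18636508. In these 3 pairs the lowest scaled pileup of either partner in any library was, rounded, 17.0. The highest value, 40.4, was that of the left partner on sequence 7 in flower bud.

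Whether the balance of the 2 partners changed between tissues was tested on the log2 ratio of left over right pileup within each library, which does not depend on the depth or scaling of the library. The fit used limma over all 26195 neighbouring pairs, with Benjamini–Hochberg adjustment over all of them, and a ratio was called at adjusted p under 0.05. The ratio changed in silique over flower bud in 106 of the 283 member pairs, or 37.5%, beside 35.6% of all neighbouring pairs. It changed in silique over seedling in 131 pairs, or 46.3%, beside 48.6%, and in flower bud over seedling in 109 pairs, or 38.5%, beside 41.5%. The members' shares were near these backgrounds in all 3 contrasts, and nothing particular to close pairs is read from them.

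Most called ratios changed by less than 2-fold. Among called pairs the median absolute change of the log2 ratio was 0.79 in silique over flower bud, 0.79 in silique over seedling and 0.87 in flower bud over seedling. Over all members, called or not, it was 0.37, 0.45 and 0.38 in these contrasts. The spread between 2 libraries of a tissue had a median SD of 0.18. A call with a change of at least 2-fold in the ratio was made in silique over flower bud in 26 pairs (9.19%, beside 10.8% of all neighbouring pairs), in silique over seedling in 46 (16.3%, beside 17.4%) and in flower bud over seedling in 41 (14.5%, beside 13.4%). At least one contrast was called in 188 pairs (66.4%, against 67.7% of wider-spaced neighbours) and all 3 in 23 pairs (8.13%, against 8.17%). The ratio differed between silique and both other tissues, without a call between those, in 42 pairs (14.8%, against 14.0%). The same pattern occurred for flower bud in 29 pairs (10.2%, against 9.01%) and for seedling in 41 pairs (14.5%, against 18.8%). The contrasts share libraries, and these overlaps are counts without a test. The order in silique was opposite to that of both other tissues in 10 pairs, that in flower bud in 9 and that in seedling in 13. These orders were not counted among wider-spaced neighbours, so nothing particular to close pairs is read from them.

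The pair whose balance moved most in silique over flower bud was on sequence 3, at 2052140–2053455 and 2053858–2054669. Its left partner had a scaled pileup of 29.8 and 25.2 in silique, 10.8 and 9.22 in flower bud, and 15.2 and 14.8 in seedling. Its right partner had 4.60 and 4.01 in silique, 7.11 and 6.67 in flower bud, and 10.9 and 10.3 in seedling. The left partner was highest and the right partner lowest in silique, with no overlap between tissues for either. Left over right was 6.48 and 6.27 in silique, 1.52 and 1.38 in flower bud, and 1.39 and 1.45 in seedling. The log2 ratio changed by 2.14 ± 0.20 in silique over flower bud and 2.17 ± 0.20 in silique over seedling (SE, limma, adjusted p = 2e-15 and 4.58e-16), but by 0.03 ± 0.20 in flower bud over seedling (adjusted p = 0.917).

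In the next pairs the right partner was low in silique. On sequence 9, at 30430870–30432144 and 30432532–30434025, the right partner had a scaled pileup of 6.97 and 5.44 in silique, 17.6 and 20.0 in flower bud, and 14.4 and 15.0 in seedling. The left partner there had 26.8 and 25.0 in silique, 27.2 and 22.3 in flower bud, and 14.4 and 14.1 in seedling. The left partner of the silique libraries lay within the range of flower bud, while the right one was far lower. The log2 ratio changed by 1.68 ± 0.17 in silique over flower bud and 2.12 ± 0.17 in silique over seedling (SE, limma, adjusted p = 7.61e-14 and 7.58e-19). On sequence 8, at 18330268–18331021 and 18331476–18332329, the right partner had 3.42 and 4.01 in silique, 16.0 and 15.7 in flower bud, and 9.18 and 8.06 in seedling. Its left partner had 5.37 and 5.26 in silique, 6.90 and 7.06 in flower bud, and 3.48 and 3.30 in seedling. The left partner was thus the higher one in silique and the lower one in both other tissues, and the log2 ratio changed by 1.70 ± 0.24 over flower bud and 1.86 ± 0.24 over seedling (SE, limma, adjusted p = 1.39e-08 and 4.66e-10).

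In the other direction, the ratio of left over right fell most in silique over flower bud on sequence 3, at 16100964–16101707 and 16102089–16103138. The left partner had a scaled pileup of 6.21 and 6.69 in silique, 13.2 and 13.3 in flower bud, and 9.18 and 9.89 in seedling. The right partner had 19.9 and 17.0 in silique, 9.58 and 8.63 in flower bud, and 12.8 and 14.3 in seedling. Silique and flower bud stood at opposite ends for both partners, with seedling between them. The log2 ratio changed by −2.06 ± 0.20 in silique over flower bud (SE, limma, adjusted p = 4.61e-15), and the other 2 contrasts were called as well. On sequence 18, at 44352094–44352883 and 44353288–44354681, the right partner had 20.0 and 18.6 in silique, 8.24 and 8.93 in flower bud, and 14.2 and 12.8 in seedling, while the left one had between 5.35 and 9.80 in all libraries. Its log2 ratio changed by −1.67 ± 0.21 in silique over flower bud (SE, limma, adjusted p = 1.48e-10). On sequence 15, at 15521230–15522597 and 15522932–15524573, the left partner had 4.74 and 5.89 in silique, 14.9 and 14.8 in flower bud, and 13.9 and 14.6 in seedling. The right partner of that pair was between 17.4 and 28.6 in all 6 libraries. The left partner was low in silique alone, and the log2 ratio changed by −1.64 ± 0.17 in silique over flower bud and −2.02 ± 0.17 in silique over seedling (SE, limma, adjusted p = 4.08e-13 and 2.19e-17).

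**Figure D2:**
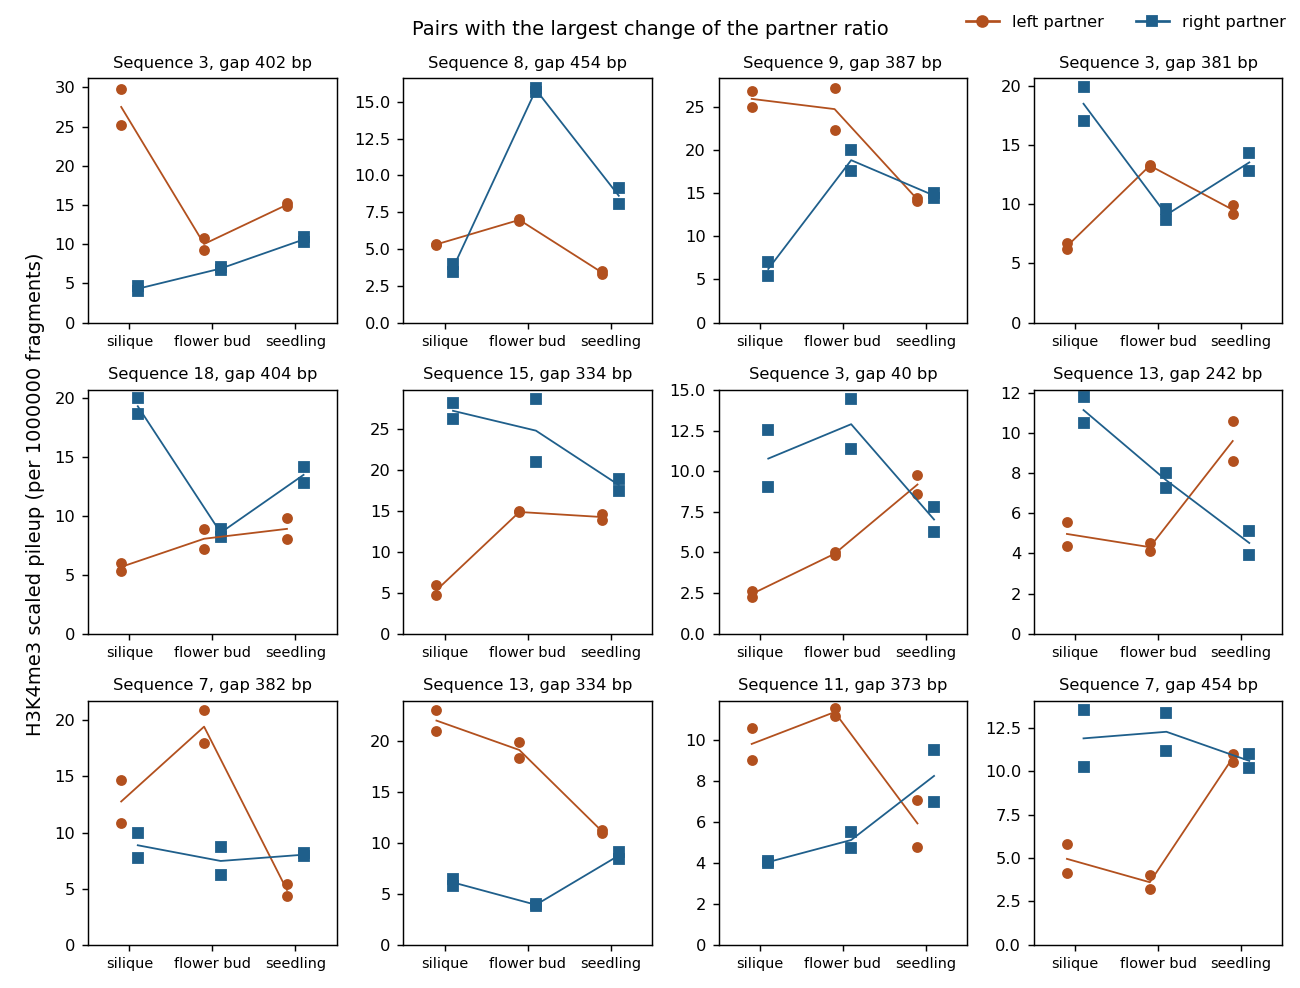
Scaled pileup, per 1000000 fragments (vertical axis), of the left partner (orange circles) and the right partner (blue squares) in each library of silique, flower bud and seedling, for the 12 pairs with the largest called changes of the partner ratio; lines join the tissue means. On sequence 3 at 2052140 the left partner reaches 29.8 in silique while the right one is at 4.60, and the partners are within 1.52-fold of each other in flower bud and seedling.

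Seedling stood apart in the pairs with the largest changes of the ratio between flower bud and seedling. The pair with the 40 bp gap on sequence 3 had a left partner of 2.65 and 2.23 scaled pileup in silique, 4.84 and 5.00 in flower bud, and 9.76 and 8.61 in seedling. Its right partner had 12.6 and 9.01 in silique, 14.4 and 11.4 in flower bud, and 6.27 and 7.79 in seedling. The right partner was the higher one in silique and flower bud and the lower one in seedling. The log2 ratio changed by −2.52 ± 0.24 in silique over seedling and −1.77 ± 0.24 in flower bud over seedling (SE, limma, adjusted p = 2.31e-15 and 2.3e-09). On sequence 13, at 63372479–63373620 and 63373863–63374838, the left partner had 5.58 and 4.37 in silique, 4.12 and 4.51 in flower bud, and 8.60 and 10.6 in seedling. The right partner there had 11.8 and 10.5 in silique, 8.03 and 7.26 in flower bud, and 5.11 and 3.94 in seedling. The order was again reversed in seedling, with log2 changes of −2.26 ± 0.25 in silique over seedling and −1.92 ± 0.25 in flower bud over seedling (SE, limma, adjusted p = 6.09e-13 and 4.03e-10).

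On sequence 7, at 12313480–12314806 and 12315189–12315956, the left partner had a scaled pileup of 14.6 and 10.9 in silique, 20.9 and 17.9 in flower bud, and 5.46 and 4.31 in seedling. The right partner had between 6.18 and 9.99 in all libraries. The left partner thus spanned the wider range, and the log2 ratio changed by 2.12 ± 0.22 in flower bud over seedling (SE, limma, adjusted p = 1.34e-13). On sequence 13, at 3439794–3440999 and 3441334–3442018, left over right was 3.58 and 3.62 in silique, 4.81 and 4.93 in flower bud, and 1.21 and 1.34 in seedling. On sequence 11, at 18850312–18851201 and 18851575–18852399, it was between 2.04 and 2.67 in the libraries of silique and flower bud, and 0.744 and 0.684 in seedling. On sequence 7, at 29678435–29679376 and 29679831–29680854, it was 0.401 and 0.428 in silique, 0.238 and 0.360 in flower bud, and 1.03 and 1.00 in seedling. In these 3 pairs the ratios in silique and flower bud lay on the same side of those in seedling, without overlap, and the log2 changes in flower bud over seedling were 1.94, 1.64 and −1.80 (limma, adjusted p = 2.1e-13, 1.35e-08 and 1.75e-10).

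Single partners were also tested, on log2 pileup centred in each library at its median over all lasting regions, with limma and adjustment over the 37889 lasting regions. In silique over flower bud, 99 of the 566 member regions rose (17.5%, beside 18.1% of all lasting regions) and 126 fell (22.3%, beside 18.8%). In silique over seedling, 157 rose (27.7%, beside 28.7%) and 125 fell (22.1%, beside 21.2%). In flower bud over seedling, 146 rose (25.8%, beside 25.1%) and 92 fell (16.3%, beside 16.1%). These shares were near those of lasting regions in general, and the median log2 change was −0.00 for members and 0.03 for all lasting regions in silique over flower bud, 0.03 and 0.06 in silique over seedling, and 0.09 and 0.06 in flower bud over seedling. Without silique replicate 2, or without flower bud replicate 2, the 99 regions that rose in silique over flower bud numbered 63.

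The split into risen and fallen regions depended on the scaling. On the scaled pileup, without centring, the median log2 change of all lasting regions was −0.13 in silique over flower bud, 0.11 in silique over seedling and 0.26 in flower bud over seedling. On that scale 44 member regions rose in silique over flower bud, which is 20.2% of those called, against 44.0% with centring, and 259 rose and 50 fell in flower bud over seedling. With quantile normalisation more members fell (135) than rose (127) in silique over seedling. The partner ratios are not touched by centring or by scaling a whole library, and they were not refitted with quantile normalisation.

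Within a pair, the 2 partners changed with little relation to each other. In silique over flower bud both partners rose in 15 pairs, both fell in 16, 1 rose while the other fell in 15, only 1 partner was called in 133 and neither in 104. In silique over seedling these counts were 27, 12, 30, 144 and 70, and in flower bud over seedling 18, 6, 22, 146 and 91. A call on 1 partner alone was the most frequent outcome in each contrast, among close pairs (47.0%, 50.9% and 51.6%) and among neighbours with wider gaps (45.1%, 49.1% and 47.8%). Both partners were called in the same direction in 11.0%, 13.8% and 8.48% of close pairs. In the classes of neighbours with wider gaps this share was between 7.21% and 8.80% in silique over flower bud, between 13.0% and 15.4% in silique over seedling and between 8.54% and 9.59% in flower bud over seedling. Opposite calls were made in 5.30%, 10.6% and 7.77% of close pairs and in 5.69%, 10.8% and 7.69% of neighbours with wider gaps. The stronger partner was called in 42.4% and the weaker in 37.1% of close pairs in silique over flower bud, beside 37.6% and 34.3% of neighbours with wider gaps. In silique over seedling these shares were 55.5% and 44.2%, beside 52.7% and 45.7%, and in flower bud over seedling 45.9% and 38.2%, beside 43.7% and 37.0%. The stronger partner was called more often than the weaker in all 3 contrasts, in both sets of pairs. The level fit followed an intensity trend, and its standard error can differ between the partners. In the pair on sequence 1 at 1169366 it was 0.180 for the weaker partner and 0.0899 for the stronger. Whether stronger partners vary more between tissues was not tested.

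Over the 283 pairs, the correlation of the left partner's log2 change with that of the right one was 0.141 in silique over flower bud, 0.0527 in silique over seedling and 0.0630 in flower bud over seedling (Pearson's r; Spearman's rho 0.169, 0.0974 and 0.0836). The changes had the same sign in 56.2%, 53.4% and 55.5% of pairs. With 1 library left out, r in silique over seedling was between 0.0184 (without seedling replicate 1) and 0.0817 (without seedling replicate 2), with 0.0317 without silique replicate 2. In flower bud over seedling it was between 0.0270 (without flower bud replicate 2) and 0.0916 (without flower bud replicate 1). All pairs share the same 6 libraries and their scaling, so these values are descriptions. In the classes of neighbours with wider gaps, up to those beyond 10000 bp, r was between −0.0240 and 0.107. Among the 126 pairs with a gap under 400 bp, r was 0.129, −0.127 and −0.0701 in the 3 contrasts, and among the 157 with a gap of at least 400 bp it was 0.146, 0.204 and 0.173. Spearman's rho was 0.172, −0.102 and −0.0183 in the nearer class and 0.159, 0.235 and 0.154 in the other, so in silique over flower bud the order of the classes depended on the measure.

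**Figure D3:**
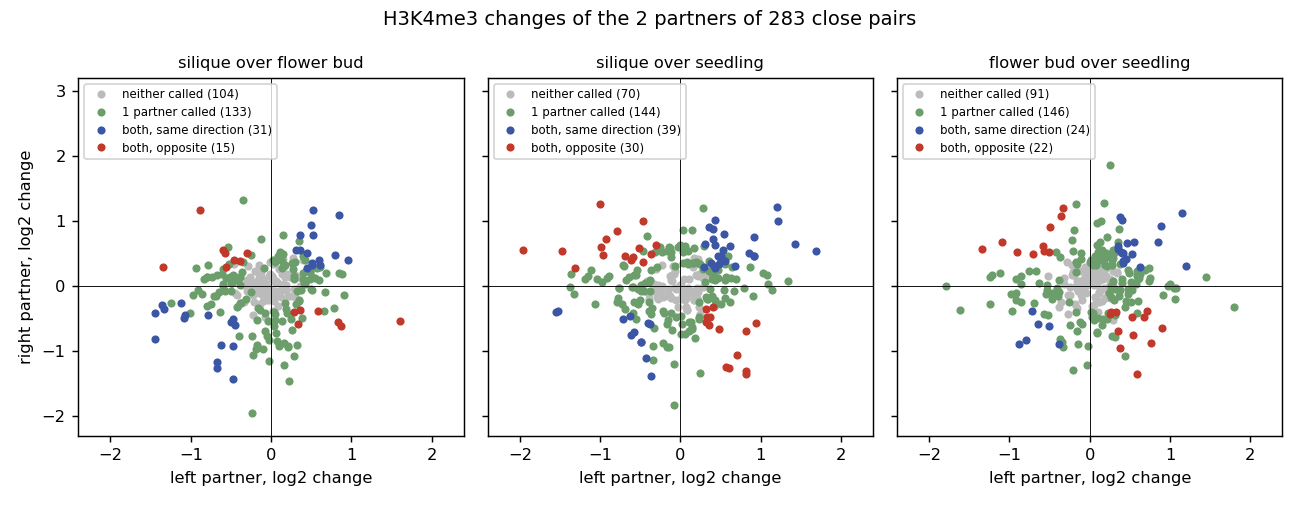
Log2 change of the right partner (vertical axis) against that of the left partner (horizontal axis) for the 283 pairs in silique over flower bud, silique over seedling and flower bud over seedling; colours show which partners were called. The points form round clouds, with Pearson's r of 0.141, 0.0527 and 0.0630, and points with both partners called lie in all quadrants.

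**Figure D4:**
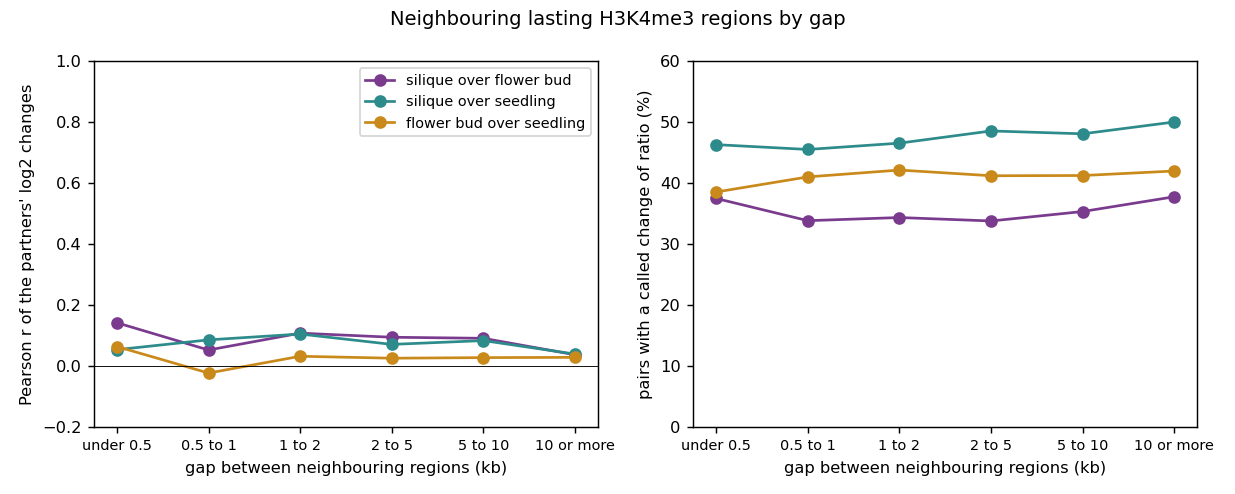
Pearson's r of the 2 neighbours' log2 changes, and percentage of pairs with a called partner ratio, for neighbouring pairs of lasting regions by class of gap in kb (horizontal axis), in 3 contrasts of tissues. The class under 500 bp holds the 283 close pairs; its percentages of 37.5%, 46.3% and 38.5% are near those of the wider classes.

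Pairs in which the partners moved in opposite directions included the one on sequence 3 at 16100964 described above, where in silique over flower bud the left partner fell by 0.89 and the right one rose by 1.17 on the log2 scale (limma, adjusted p = 4.1e-07 and 6.3e-13). On sequence 1, at 8463307–8464141 and 8464566–8465645, the left partner had a scaled pileup of 6.69 and 6.16 in silique, 3.61 and 4.22 in flower bud, and 6.27 and 6.05 in seedling. The right partner had 5.37 and 5.17 in silique, 8.76 and 9.22 in flower bud, and 8.01 and 7.33 in seedling. In silique over flower bud the left partner rose by 0.87 and the right one fell by 0.62 on the log2 scale (limma, adjusted p = 7.2e-05 and 0.0015). On sequence 8, at 22561379–22561966 and 22562381–22563009, left over right was 0.855 and 0.787 in silique, 1.84 and 1.81 in flower bud, and 0.604 and 0.677 in seedling. The left partner of that pair was the higher one in flower bud and the lower one in silique and seedling. On sequence 13, at 25635334–25636254 and 25636590–25637685, the left partner had 3.35 and 2.94 in silique, 5.15 and 4.51 in flower bud, and 1.97 and 2.57 in seedling. In flower bud over seedling it rose by 0.90 and its right partner fell by 0.64 on the log2 scale (limma, adjusted p = 0.00052 and 0.0041).

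In other pairs both partners rose. On sequence 9, the pair with the third narrowest gap, at 34789730, had a left partner of 13.0 and 12.2 scaled pileup in silique, 7.31 and 7.16 in flower bud, and 3.60 and 5.68 in seedling. Its right partner had 9.07 and 8.65 in silique, 7.52 and 7.36 in flower bud, and 5.69 and 5.22 in seedling. Both were highest in silique and lowest in seedling, and the log2 changes in silique over seedling were 1.43 on the left and 0.65 on the right (limma, adjusted p = 1.1e-11 and 0.00048). The pair with the 183 bp gap on sequence 8 had left over right between 0.922 and 1.32 in every library, and its ratio was not called in any contrast.

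H3K27me3, which the rule did not use, was rare on the members. A peak of this mark overlapped 2 and 1 of the 566 member regions in the silique libraries, 6 and 5 in the flower bud libraries, and 3 and 2 in the seedling libraries. The shares were 0.353% and 0.177% in silique, 1.06% and 0.883% in flower bud, and 0.530% and 0.353% in seedling. Other lasting regions under the width limit had shares of 1.82% and 0.882% in silique, 2.29% and 2.48% in flower bud, and 1.32% and 1.14% in seedling. The difference, members minus others, averaged −1.10 percentage points ± 0.388 (SD, 6 libraries) and was below 0 in 6 of 6 libraries. The two-sided exact permutation test gave p = 0.0312, the smallest that 6 libraries allow, and 0.0938 after Benjamini–Hochberg adjustment over the 3 tests, which does not pass 0.05. The H3K27me3 libraries held between 2654588 and 11513204 fragments, and the fewest peaks, 13579, were in the shallowest one, silique replicate 2.

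No pair had a listed H3K27me3 peak on both partners. In 6 of the 283 pairs a peak of this mark overlapped one partner in at least 1 library, in 0 pairs it overlapped both, and 277 pairs had none. The lists hold only peaks past the q cutoff, so a partner without one may still carry some of the mark. The pairs named next were picked, per tissue, for the largest H3K4me3 differences between such partners. On sequence 10, at 19840838–19842078 and 19842490–19843196, the left partner carried H3K27me3 in all 6 libraries. Its H3K4me3 scaled pileup was 6.14 and 5.44 in silique, 6.08 and 5.98 in flower bud, and 11.2 and 13.9 in seedling, while the right partner, without H3K27me3, had 8.51 and 6.87 in silique, 6.80 and 5.79 in flower bud, and 6.39 and 6.87 in seedling. The left partner was thus highest in seedling, and the log2 ratio of left over right changed by −1.32 ± 0.23 in silique over seedling and −0.97 ± 0.23 in flower bud over seedling (SE, limma, adjusted p = 1.6e-06 and 0.000408). The left partner on sequence 7 at 12313480 carried H3K27me3 in both flower bud and both seedling libraries, although its H3K4me3 was higher in flower bud than in seedling. The left partner on sequence 3 at 2052140, high in silique, carried it in both flower bud libraries.

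Over pairs with H3K27me3 in both libraries of a tissue on 1 partner only (1 pair in silique, 5 in flower bud and 2 in seedling), the median H3K4me3 of the covered over the uncovered partner was 0.721 and 0.792 in silique, 0.894 and 1.03 in flower bud, and 1.10 and 1.03 in seedling. On the log2 scale the mean over the 6 libraries was −0.12 ± 0.24 (SD), and 3 of 6 libraries were below 0. The two-sided exact permutation test gave p = 0.344, also 0.344 after adjustment over the 3 tests. With fold enrichment in place of pileup the mean was −0.00, which did not pass the test. It was −0.05 without silique replicate 1 and −0.08 without silique replicate 2. Where peaks had to cover 50% of the partner it was −0.39, with 0 pairs left in silique, 1 in flower bud and 1 in seedling. The last 3 settings have fewer than 6 libraries and could not pass, since 5 libraries allow no exact p under 0.0625. With so few pairs, whether the covered partner carried less H3K4me3 was not resolved here.

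Close pairs were found on each of the 19 large sequences. Sequences 1 to 10 held 146 of them, or 8.29 per 1000 lasting regions, with a range over these sequences of 3.55 to 11.4. Sequences 11 to 19 held 136, or 6.72 per 1000 lasting regions, with a range of 3.53 to 9.33, and 1 pair was on another sequence. The ranges of both groups of sequences overlap. The extents of these 19 sequences follow the order of the chromosomes of the Da-Ae assembly in RefSeq from A01 to A10 and C01 to C09 (Pearson's r = 0.994, Spearman's rho = 0.991, a description), so the first group stands for the A subgenome, inherited from *Brassica rapa*, and the second for the C subgenome, inherited from *Brassica oleracea*, on the strength of that match alone. The number of pairs on a sequence ran with its number of lasting regions (Pearson's r = 0.721 over the 19 sequences, a description). The next merged region beyond a pair, lasting or not, lay a median of 5187 bp away, and in 25 of 565 flanks it was under 1000 bp. Among the 26195 neighbouring pairs of lasting regions under the width limit, 1327 had a gap under 1000 bp. Those past the 500 bp limit had a median gap of 6342 bp. These backgrounds cover lasting regions only, and nothing particular to close pairs is read from the flanks.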

How the data were processed

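H3K4me3 and H3K27me3 ChIP-seq was measured in 12 libraries, 2 per mark and tissue. The tools named in the submitters' processing notes are BWA, GATK, MACS2 and SAMtools. Per the file headers, MACS 2.2.7.1 called narrow peaks from paired-end fragments, 1 library at a time, with 1e-05 as the q cutoff, against 1 merged control of 12042843 fragments. The name of the genome build is not given in the sources used here. The pileup, a signal of whole numbers that is not scaled between libraries, the fold enrichment over the local control, a ratio, and the −log10 p-value and q-value are as the authors deposited them. Fold enrichment and −log10 q were used only in alternatives.

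Peaks were merged, and the pairs, log2 ratios and levels computed, with Python 3.11.15, numpy 2.4.6, pandas 2.3.3 and scipy 1.17.1. limma 3.58.1 in R 4.3.3 fitted tissue over the 6 H3K4me3 libraries together, with an intensity trend. For the ratio fit the trend followed the mean log2 pileup of the 2 partners. There were 3 residual degrees of freedom, and prior degrees of freedom of 90.2 for ratios and 79.0 for levels. The adjusted p is Benjamini–Hochberg over all neighbouring pairs or all lasting regions. No pseudocount was needed, since every lasting region has a peak in every H3K4me3 library. The fits were tested on simulated data. The precision rests on between 8609548 and 14339594 fragments per H3K4me3 library.

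The members, lists and tests were chosen with earlier results of these data known. Named pairs are, per contrast, the 3 with the largest called change of the ratio each way without overlap of the libraries, and the 3 with partners called in opposite directions and the largest smaller change. Over all tissues they are the 3 with the highest weaker partner, the most unequal, the most equal and the narrowest gap. Those at the gap limit are named as well. Per tissue, they include pairs with H3K27me3 on 1 partner whose H3K4me3 differed most between partners. Alternatives were other scalings, fold enrichment, a stricter −log10 q of 10, other gap and width limits, a 50% cover, and leaving out each library. Gene names were not used, since no annotation of the files' build was at hand.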

Additional observations from a re-analysis of the deposited data

How the results depend on the processing

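Over 16 results and 147 alternatives, 138 values kept their direction, their side of the threshold or their size, 9 moved and 0 were reversed. The margin for the size of a count was wide, so a kept count is not an unchanged one. The 240 pairs found with 50% cover and all counts of called ratio pairs given below were tallied as kept. None of the 3 permutation tests passed its threshold, and an alternative that also did not pass counted as kept, whatever its sign. With 1 library left out these tests could not pass, so that part of the tally was fixed beforehand and says nothing of stability. All 206 refits of the named pairs' called ratios kept the direction. These ratios had been picked for large or opposite called changes, so this was close to fixed by the choice. Leaving out a library of the tissue outside a contrast cannot change the ratio estimate of that contrast. A named pair short of −log10 q of 10 in some library had no refit at that setting. On scaled pileup without centring, the members that rose in silique over flower bud numbered 44 in place of 99, those that rose in flower bud over seedling 259 in place of 146, and those that fell there 50 in place of 92. Leaving out 1 library at a time gave 63 to 101 members that rose in silique over flower bud. The correlation of the partners' changes in silique over flower bud was 0.120 with fold enrichment in place of pileup, and 0.118 to 0.142 when 1 library was left out. The cause was not tested. The number of pairs follows from the rule: 14 at a gap under 300 bp, 1327 under 1000 bp and 301 with no width limit. It was 272 with −log10 q of at least 10, and 240 where each library's peaks had to cover 50% of the region. With 1 library left out it was 279 to 355. The pairs called for the ratio numbered 76 to 109 in silique over flower bud, 104 to 130 in silique over seedling and 83 to 117 in flower bud over seedling when 1 library was left out. Without a library, its tissue has 1 left, which is assumed to vary like the others. The difference in H3K27me3 share was −1.17 to −0.994 percentage points with 1 library left out, where exact p = 0.0625 is the smallest that 5 libraries allow. The level of members minus others, not called, had the opposite sign (−0.07, log2) at a gap under 300 bp, and this value is among the 138.

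No paired analysis was possible because the labels give library numbers and no replicate numbers shared between tissues. The peak lists limit what can be seen: a gap shorter than a fragment is never listed, fragment size and depth differ between libraries, and without silique replicate 1, which has the most fragments and the longest, there were 355 pairs. Whether fragment size moves the ratios was not tested. With 2 libraries per tissue the spread is mostly borrowed across regions.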
